A study of Mus musculus with 16 samples.

Results

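*Trp53*, which encodes p53, and 9 genes that p53 is known to switch on or that hold it in check (*Mdm2*, *Mdm4*, *Cdkn1a*, *Ccng1*, *Phlda3*, *Eda2r*, *Trp53inp1*, *Zmat3* and *Sesn1*) were followed through 2 experiments on mouse erythroid progenitors. The 10 genes were listed by symbol and found by symbol in the count tables, 10 of the 15386 genes of the RNA-seq table and 10 of the 13490 of the m6A table, which together held 16010 genes. All cells came from the bone marrow of adult mice of both sexes on a C57BL/6 background. For RNA-seq there were 3 libraries of control CFU-E cells, the colony-forming erythroid progenitors, and 3 libraries labelled *Mettl3* KO and Kit low, from mice carrying *Mettl3* fl/fl and EpoR Cre/-. This Cre, named EpoR-tdTomato-Cre, recombines in erythroid cells and in the macrophages of erythroblastic islands, and only in part in stem cells. The labels give the controls no genotype. Live cells (7AAD-) lacking lineage markers, Sca1, CD34, CD41 and CD16/32 and carrying both Kit and CD71 were sorted as CFU-E, and the Kit-low cells as the subset with very little Kit on the surface. The groups therefore differed in genotype and in the Kit gate, whose effects cannot be told apart here. The second experiment compared 2 libraries of RNA pulled down with an antibody to N6-methyladenosine (m6A IP) with 2 input libraries, all from control CFU-E cells. No source says that each library came from its own animal, so the p-values measure only the spread between these libraries, which may be technical.

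p53 is a transcription factor that is made and destroyed continually in healthy cells. MDM2, a ubiquitin ligase, and its relative MDM4 bind p53 and keep it low, and damage to DNA frees it from them. Stabilized p53 binds paired decamers in the DNA of its target genes and raises genes for cell-cycle arrest, survival and death, together with *Mdm2* itself, which closes a feedback loop. Much of this control acts on the p53 protein, which was not measured. METTL3 is the enzyme that writes m6A on mRNA, and the mark is read as a signal for the splicing, export, translation or decay of the transcript.

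DNA near the start sites of the genes that resembles the element p53 binds is shown first. A p53 response element was searched as 2 adjoining decamers with no spacer, each holding CNNG at its centre, in windows of 3000 bases on either side of the RefSeq start sites in GRCm38. The element is its own reverse complement, so 1 pass covers both strands. Start sites were found for 8 of the 10 genes, all but *Trp53inp1* and *Zmat3*. The C and G of each centre had to be present, and every other position, including the 2 bases between them, could differ from the consensus and count as a mismatch. With up to 1 mismatch, a match lay near *Cdkn1a* and *Ccng1*, 2 of the 8, against 1.24% of the 27025 genes with a start site. Up to 3 mismatches were met by 7 of the 8 genes and by 27.3% of all genes. Because most of the genes were listed as p53 targets, these shares describe the list and are not a finding about it. The best stretch near *Phlda3* had 4 mismatches. *Cdkn1a* has 2 start sites. Its match with 1 mismatch lies at -42 bases from the first and at -2832 bases from the second, where minus means before the start site. The 250 bases before the first start sites of *Cdkn1a* (chr17:29090729-29090978, plus strand) and *Ccng1* (chr11:40755287-40755536, minus strand), read from GRCm38.p6, each hold a match with 1 mismatch, printed in capitals:
Cdkn1a: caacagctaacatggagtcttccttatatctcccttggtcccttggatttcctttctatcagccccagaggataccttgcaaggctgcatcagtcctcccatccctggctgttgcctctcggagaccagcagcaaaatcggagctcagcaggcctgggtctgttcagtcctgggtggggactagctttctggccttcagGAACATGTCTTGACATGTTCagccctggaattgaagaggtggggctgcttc
Ccng1: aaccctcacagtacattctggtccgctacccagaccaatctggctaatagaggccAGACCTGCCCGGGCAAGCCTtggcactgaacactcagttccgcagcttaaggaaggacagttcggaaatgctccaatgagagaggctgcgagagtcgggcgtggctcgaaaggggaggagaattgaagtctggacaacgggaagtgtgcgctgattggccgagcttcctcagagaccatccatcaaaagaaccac

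Further matches near *Ccng1*, *Eda2r*, *Mdm2* and *Trp53* are shown with the CNNG centres, which hold the C and G that were required, in capitals. The *Ccng1* intron held a match with 1 mismatch (chr11:40754936-40754955), an intron of *Eda2r* 1 with 2 (chrX:97376534-97376553), and *Mdm2* 1 with 3 in an exon of a non-coding transcript, 644 bases after the start site (chr10:117710105-117710124). *Trp53* itself had 1 with 3 mismatches, 66 bases before its start site (chr11:69580284-69580303). Matches with 3 mismatches also lay in introns of *Mdm4* and *Sesn1*, and further ones near *Cdkn1a* and *Ccng1*, and are not printed. A match is a description of letters and does not show that p53 was bound there.
Ccng1 intron: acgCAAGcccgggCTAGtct
Eda2r intron: gggCAAGtccgggCCTGtgt
Mdm2 exon: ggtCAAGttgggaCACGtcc
Trp53 upstream: ggaCTTGcccttaCTTGtta

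The RNA-seq libraries held 17429262 to 21329242 counts and the m6A libraries 19421059 to 37142742, with IP replicate 1 the deepest. Counts were tested with edgeR's quasi-likelihood test on 11979 and 11447 genes, and levels are given as TMM-normalized CPM, counts scaled to the library total. *Kit* averaged 598 ± 47.1 CPM in control and 55.2 ± 12.4 CPM in the Kit-low group (SD over 3 libraries each), with a log2 fold change of -3.44, in the direction of the gate. The 3 control libraries had 115, 123 and 130 CPM of *Mettl3*, and those labelled *Mettl3* KO had 117, 127 and 108 CPM (log2 fold change -0.07, edgeR adjusted p = 0.63), so the gene-level count does not show the deletion. Of the exonic bases of *Mettl3*, 18.4% are shared with *Tox4* on the opposite strand. In erythroid cells of these mice the study reports no *Mettl3* mRNA by qRT-PCR, no METTL3 protein and less m6A. The 7 erythroid progenitor markers summed to 3209 to 3312 CPM in control and 3030 to 3170 CPM in the Kit-low libraries. Of these, *Kit*, *Gata2* (log2 fold change -3.93) and *Myb* (-2.83) were called lower and *Klf1* (0.59) and *Epor* (0.59) higher. *Gata1* (0.07) and *Tfrc* (-0.13) were not called. Genes of erythroblast maturation (globins, *Alas2* and others) summed to 110.1 to 121 CPM in control and to 2644 to 4445 CPM in the Kit-low libraries, and 8 of the 8 tested were called higher. Macrophage markers summed to 20.1 to 24.8 CPM in control and 12.4 to 14.5 CPM in the Kit-low libraries. Of these, *Adgre1*, with 2 counts in each control library and 0 in each Kit-low library, had too few for a test. Granulocyte markers summed to 25.8 to 39.2 and 16.1 to 24.8 CPM, and megakaryocyte markers to 13.1 to 20.4 and 20.03 to 25.9 CPM. Lymphoid markers summed to 1.72 to 9.33 and 2.39 to 4.75 CPM. The part of maturation stage or of other cells in the results below was not tested.

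Of the 10 genes, 6 were higher and 2 lower in Kit-low *Mettl3*-deficient than in control CFU-E cells at a fold of at least 1.5 and an adjusted p under 0.05, and 2 were not called. Across all genes tested 12.1% were called higher and 9.83% lower. The 3 control and 3 Kit-low values did not overlap for any of the 10 genes, against 47.5% of all genes tested. The median log2 fold change was 1.16 for the 10 genes and 0.01 for all genes tested. *Eda2r* passed the filter on low counts in part through the Kit-low libraries, where it was higher, since control replicate 2 held 1 count. In bulk libraries, fewer cells with a transcript and less of it in each cell cannot be told apart.

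**Figure D1:**
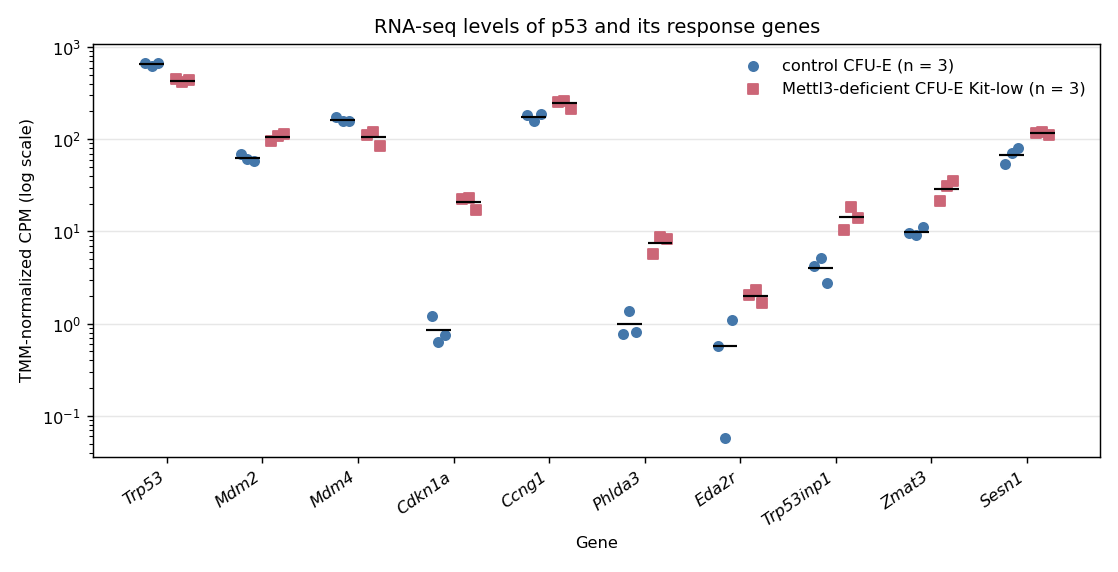
Levels of the 10 genes in each RNA-seq library, on a log axis of TMM-normalized CPM; circles are control CFU-E libraries, squares Kit-low Mettl3-deficient libraries (n = 3 each), and bars the group means. The squares lie above the circles for 8 genes and below them for Trp53 and Mdm4, with no overlap in any gene.

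*Trp53* (chr11:69580359-69591873, plus strand) was the most abundant of the 10 genes. It was at 666, 616 and 676 CPM in control and at 451, 414 and 435 CPM in the Kit-low libraries, every one of the latter below every control. The means were 653 ± 32.1 and 434 ± 18.2 CPM (SD, n = 3 each), and the log2 fold change of -0.59 (SE 0.074, edgeR adjusted p = 0.000224) was just past a fold of 1.5. The call was lost, though the adjusted p was not, with library sizes alone in place of TMM (-0.54), without control replicate 1 (-0.58) or 3 (-0.57), and without Kit-low replicate 2 (-0.53) or 3 (-0.58). A pseudogene, *Trp53-ps*, is annotated, and reads it may share make the level uncertain. *Wrap53*, the neighbouring gene on the other strand, was chosen after its values were seen. It was at 62.3 to 70.7 CPM in control and 87.6 to 98.4 CPM in Kit-low libraries (log2 fold change 0.48, below the fold threshold). Any part of the locus in either value was not tested.

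The 2 genes whose proteins restrain p53 went in opposite directions. *Mdm2* (chr10:117688875-117710758, minus strand), itself a p53 target, was at 68.9, 61.7 and 58.7 CPM in control and at 96.6, 109 and 114 CPM in the Kit-low libraries. It rose from 63.1 ± 5.20 to 106 ± 8.73 CPM, with a log2 fold change of 0.75 (SE 0.11, edgeR adjusted p = 0.000459). *Mdm4* (chr1:132959484-133030561, minus strand), whose protein masks the activating domain of p53 without ubiquitin ligase activity of its own, was at 176, 156 and 156 CPM in control and at 110, 120 and 83.9 CPM in the Kit-low libraries. It fell from 163 ± 11.3 to 105 ± 18.5 CPM, with a log2 fold change of -0.64 (SE 0.13, edgeR adjusted p = 0.00372), and Kit-low replicate 3 was the lowest. The fall of *Mdm4* missed the fold threshold with library sizes alone (-0.58), without control replicate 1 (-0.58) and without Kit-low replicate 3 (-0.49). A pseudogene, *Mdm4-ps*, is counted separately in the RNA-seq table and may share reads with it.

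Dividing the counts of one gene by those of another in the same library removes any normalization. The ratio of *Mdm2* to *Mdm4* counts, formed after their values were seen and given with no test, was 0.392, 0.395 and 0.376 in control and 0.877, 0.910 and 1.35 in the Kit-low libraries, the last in replicate 3. It averaged 0.388 ± 0.0098 and 1.05 ± 0.266 (SD, n = 3 each). The ratio of *Mdm2* to *Trp53* counts averaged 0.0968 ± 0.0087 in control and 0.246 ± 0.0273 in the Kit-low libraries. Both ratios separated the groups with no overlap.

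**Figure D2:**
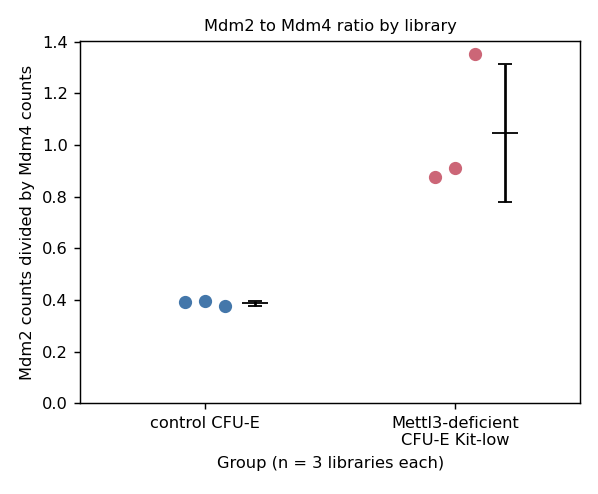
Ratio of Mdm2 to Mdm4 counts in each library, without any normalization; points are libraries (n = 3 per group) and the bar beside them the mean with its SD. Control libraries lie between 0.376 and 0.395 and Kit-low Mettl3-deficient libraries between 0.877 and 1.35.

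*Cdkn1a* (chr17:29090976-29100727, plus strand) encodes p21, which inhibits cyclin-dependent kinases and stops the cell cycle. Its counts were 25, 11 and 13 in control and 437, 469 and 327 in the Kit-low libraries, that is 1.197, 0.629 and 0.744 CPM against 22.7, 22.8 and 17.1 CPM. This was the largest change among the 10 genes in the fit, 23.8-fold, and over the alternatives its log2 fold change ran from 4.39 to 4.91. Of its exonic bases, 7.68% are shared with a gene on the opposite strand, and none of the other 9 genes has such an overlap. *Ccng1* (chr11:40748552-40755311, minus strand) encodes cyclin G1, an atypical cyclin that recruits a phosphatase to MDM2. It was at 184, 157 and 186 CPM in control and at 257, 262 and 215 CPM in the Kit-low libraries, without overlap. The means were 176 ± 16.1 and 245 ± 25.7 CPM, and the log2 fold change of 0.48 (SE 0.10, edgeR adjusted p = 0.00559) stayed below the fold of 1.5 in the fit, at 1.39-fold. Of the 8 genes searched, *Cdkn1a* and *Ccng1* had the closest matches to the response element before a start site. Their log2 fold changes were the largest and the smallest positive ones of the 10, and no link between match and change was tested.

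Among the genes of survival and death, *Phlda3* (chr1:135766119-135769136, plus strand) encodes a small protein that keeps the kinase AKT off the membrane. It was at 0.766, 1.37 and 0.802 CPM in control and at 5.71, 8.69 and 8.19 CPM in the Kit-low libraries, and rose 7.68-fold (log2 fold change 2.94, SE 0.36, edgeR adjusted p = 0.00021). *Trp53inp1* (chr4:11156431-11174379, plus strand), whose protein acts in p53-driven death and in autophagy, was at 4.21, 5.15 and 2.75 CPM in control and at 10.3, 18.2 and 14.1 CPM in the Kit-low libraries. It rose 3.52-fold (log2 fold change 1.82, SE 0.30, edgeR adjusted p = 0.00112). Both genes rose from low levels, and every Kit-low value stood above every control value.

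*Eda2r* (chrX:97333840-97377216, minus strand) encodes a receptor for ectodysplasin A2 and was the rarest of the 10 genes. Its counts were 12, 1 and 19 in control and 39, 48 and 32 in the Kit-low libraries, or 0.573 ± 0.515 and 2.01 ± 0.331 CPM (SD, n = 3 each). Its log2 fold change of 1.80 (SE 0.72, edgeR adjusted p = 0.081) did not pass the test, and over the alternatives its value ran from 1.27 to 2.60. The groups did not overlap, but control replicate 2, with 1 count, set much of the spread.

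*Zmat3* (chr3:32334792-32366014, minus strand) encodes a zinc-finger protein that binds RNA and alters splicing. It was at 9.67, 9.09 and 11.2 CPM in control and at 21.2, 31.1 and 35.05 CPM in the Kit-low libraries, a rise of 2.92-fold (log2 fold change 1.55, SE 0.21, edgeR adjusted p = 0.000329). *Sesn1* (chr10:41809935-41908424, plus strand) encodes sestrin 1, a stress protein that restrains the growth kinase complex mTORC1. It was at 54.3, 70.2 and 80.0 CPM in control and at 118, 120 and 110 CPM in the Kit-low libraries, a rise of 1.70-fold (log2 fold change 0.77, SE 0.14, edgeR adjusted p = 0.00173). For both genes the lowest Kit-low library was above the highest control library.

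**Figure D3:**
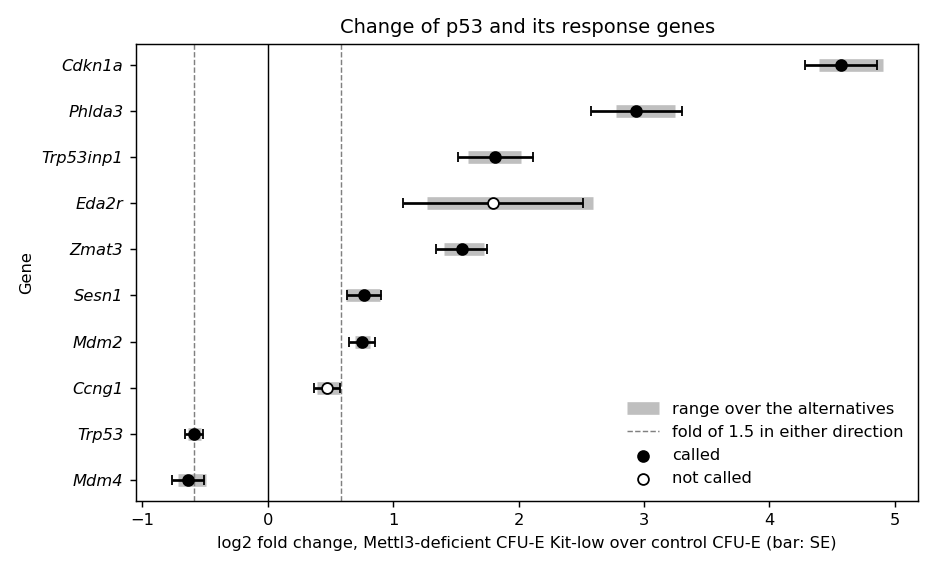
Log2 fold change of each gene, Kit-low Mettl3-deficient over control CFU-E; points with bars are the estimate and its SE, grey bands the range over the alternatives, filled points the genes called, and dashed lines a fold of 1.5. Cdkn1a leads at 4.57 and Trp53 and Mdm4 lie near the lower dashed line at -0.59 and -0.64.

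Levels per kilobase of the longest coding transcript put the genes on 1 scale. In control CFU-E the order was *Trp53* (350 CPM per kb), *Ccng1* (50.1), *Mdm4* (22.9), *Mdm2* (20.1), *Sesn1* (17.9), *Zmat3* (1.28), *Trp53inp1* (0.747), *Phlda3* (0.683), *Cdkn1a* (0.412) and *Eda2r* (0.121). Mean ± SD overlapped between *Mdm4* and *Mdm2*, *Mdm2* and *Sesn1*, *Trp53inp1* and *Phlda3*, and *Phlda3* and *Cdkn1a*, so these neighbours were not separated. In the Kit-low libraries *Mdm2* (33.8 CPM per kb) and *Sesn1* (30.5) stood above *Mdm4* (14.7), and *Cdkn1a* (10.02) stood above *Phlda3* (5.25), *Zmat3* (3.74) and *Trp53inp1* (2.63). Here mean ± SD overlapped between *Mdm2* and *Sesn1*, *Phlda3* and *Zmat3*, and *Zmat3* and *Trp53inp1*. *Trp53* (232), *Ccng1* (69.7) and *Eda2r* (0.423) kept the first, second and last places. These levels come from oligo-dT primed libraries and depend on which transcript is used.

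A second list, written from general knowledge with earlier results of these data known, held 35 other p53 target genes, of which 29 were in the RNA-seq table and tested. Among them 12 were called higher and 1 lower, against 12.1% and 9.83% of all genes tested, the rest were not called, and the median log2 fold change was 0.55. *Ephx1* passed the filter on low counts only through the Kit-low libraries, so it had to differ to be tested. *Gdf15* (18, 3 and 11 counts in control) and *Plk2* (12, 3 and 3) passed in part through the Kit-low libraries. The calls of *Ephx1*, *Gdf15* and *Plk2* are not taken as support for the count. The largest values were those of *Ephx1*, an epoxide hydrolase (3.56, SE 1.1, on 2, 0 and 8 counts in control and 97, 12 and 20 in Kit-low libraries), *Gdf15*, a secreted stress factor (2.95), *Plk2*, a kinase (2.88), and *Ak1*, an adenylate kinase (2.26). *Xpc*, which recognizes DNA lesions for excision repair, fell from 28.5 to 35.4 CPM in control to 10.5 to 19.1 CPM in Kit-low libraries (log2 fold change -1.14, edgeR adjusted p = 0.00227). Without Kit-low replicate 2 the genes called lower numbered 2. Of the genes not called, the most abundant were *Rps27l* (0.32), *Gtse1* (0.55) and *Aen* (0.51), all below the fold of 1.5.

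**Figure D4:**
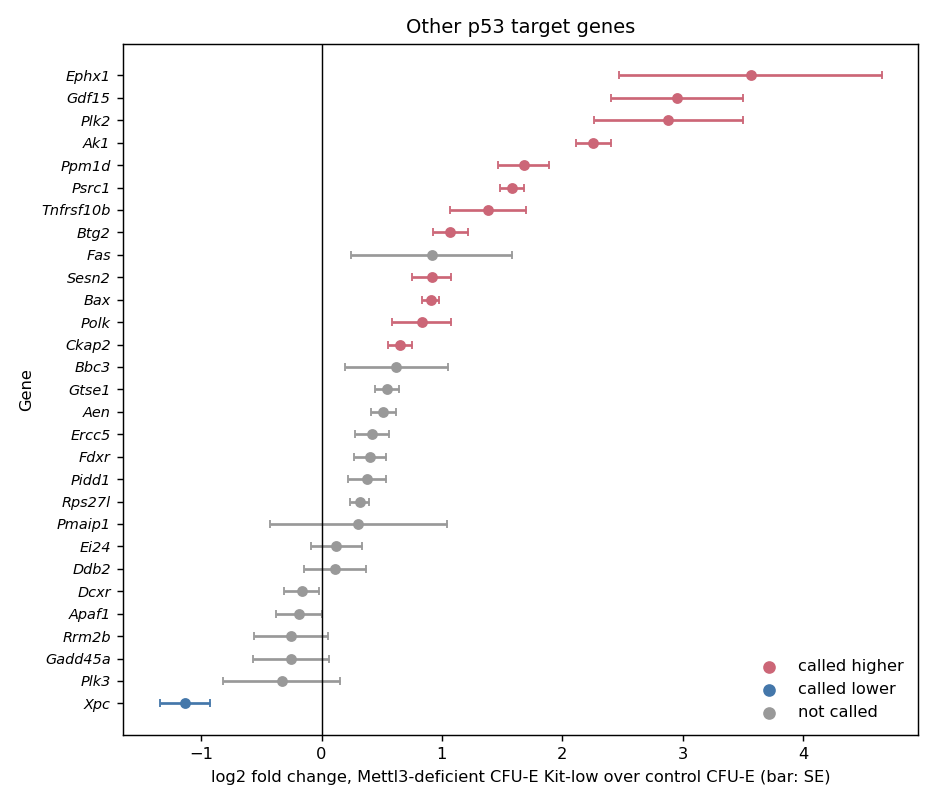
Log2 fold change with SE of the 29 other p53 target genes tested, Kit-low Mettl3-deficient over control CFU-E; red marks genes called higher, blue called lower and grey not called. The 12 red points run from 0.65 to 3.56 and the blue point, Xpc, lies at -1.14.

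Genes that act on p53 itself were taken next. Of 24 regulators and cofactors 23 were tested, 3 were called higher and 2 lower, shares close to the 12.1% and 9.83% of all genes tested, and the median log2 fold change was 0.03, so the counts are no result about these genes as a list. *Hipk2*, a kinase that phosphorylates p53 (1.89), *Ppm1d*, the phosphatase WIP1 that reverses such marks and is also a p53 target (1.68), and *Ep300*, an acetyltransferase and coactivator (0.89), rose. *Rpl5* (-0.66) and *Rpl11* (-0.59), ribosomal proteins that can bind MDM2, fell, and without control replicate 2, Kit-low replicate 1 or Kit-low replicate 2 only 1 of them was called. Both have many processed copies in the genome, which makes their counts uncertain. The most abundant genes not called were *Daxx* (0.47), *Crebbp* (0.46) and *Huwe1* (-0.02).

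Relatives of the 10 genes showed which family members moved. Of 14 paralogs 9 were tested, 2 were called higher, against 12.1% of all genes tested, and 0 lower by edgeR (1 lower at an unadjusted p under 0.05, 0 by DESeq2). *Phlda2* rose from 5.41 to 15.2 CPM (log2 fold change 1.49, edgeR adjusted p = 0.00118) and *Sesn2*, also counted among the other targets, by 0.91 on the log2 scale. *Cdkn1b*, which encodes p27, had a log2 fold change of 0.40, *Zmat2* of 0.39 and *Zmat5* of -0.21, and none of these was called. Among the close relatives of *Cdkn1a* in the list, *Cdkn1c* had too few counts for a test.

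Of 20 cell-cycle genes that the p21 and DREAM complex pathway is known to repress, 3 were called higher, a share close to the 12.1% of all genes tested, and 0 lower by edgeR (0 by DESeq2), where 9.83% of all genes were, and the median log2 fold change was 0.13. With 20 genes these counts are no result about the list. The genes called were *Foxm1* (0.97) and *Mybl2* (0.78), transcription factors of the late cell cycle, and *Birc5* (0.87), which encodes survivin. Among the genes not called, *Cdc20* (-0.04), *Top2a* (-0.36) and *Mki67* (0.48) were the most abundant. Without Kit-low replicate 3 the genes called higher numbered 5. *Cenpa* (-0.42), *Top2a* and *Bub1b* (-0.29) had edgeR p-values under 0.05, unadjusted and adjusted, but were short of the fold of 1.5, and the first and last of them were picked after their values were seen.

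In the m6A experiment, *Trp53inp1* had too few counts for a test (9 and 5 in input, 36 and 9 in IP), and 9 of the 10 genes were tested. By edgeR 0 of the 9 were enriched in IP over input and 1 was depleted, at an adjusted p under 0.05. Across all genes tested 7.9% were enriched and 7.86% depleted. At an unadjusted p under 0.05 there were 2 genes higher in IP, *Mdm2* and *Sesn1*, and DESeq2 called 0. The IP and input values did not overlap for 5 of the 9 genes, against 60.9% of all genes tested, and the median log2 ratio of IP to input was 0.13 for the 9 and 0.06 for all genes tested.

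*Phlda3* was the gene depleted. It was at 30.6 and 35.4 CPM in input and at 7.60 and 4.22 CPM in IP, a log2 ratio of -2.46 (SE 0.32, edgeR adjusted p = 0.000631), and over the alternatives the ratio ran from -2.98 to -2.12. *Mdm2* was at 4.98 and 4.50 CPM in input and at 11.9 and 6.33 CPM in IP (log2 ratio 0.95, SE 0.35, edgeR adjusted p = 0.0937). *Sesn1* was at 13.3 and 7.08 CPM in input and at 27.1 and 13.7 CPM in IP (log2 ratio 1.002, SE 0.39, edgeR adjusted p = 0.103). In both genes IP replicate 1 was the higher of the pair, and without IP replicate 2 both were called, at 1.32 and 1.40, with edgeR adjusted p of 0.0117 and 0.0165. With upper-quartile normalization they were also called, with edgeR adjusted p of 0.0414 and 0.0446, a scaling that raised the median of all genes by 0.128. A fit with the replicate number as a block called both as well, with edgeR adjusted p of 0.031 and 0.00345, and whether the IP and input of 1 number came from the same RNA is not stated in the sources used here.

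The other 6 genes tested had ratios near 1 or wide errors. *Trp53*, well counted at 331 and 436 CPM in input and 319 and 367 CPM in IP, had a log2 ratio of -0.16 (SE 0.23, edgeR adjusted p = 0.668). *Ccng1* was at 23.6 and 23.7 CPM in input and 24.5 and 21.1 CPM in IP, and *Mdm4* at 30.0 and 34.3 CPM and 48.9 and 37.6 CPM, with log2 ratios of -0.05 and 0.43. *Cdkn1a* (-0.24), *Zmat3* (0.13) and *Eda2r* (0.86) were at or below 5.34 CPM in every library, and *Eda2r* passed the filter through 1 group. With so few replicates these values do not show that the transcripts lack m6A. The signs of *Trp53*, *Cdkn1a*, *Ccng1* and *Zmat3* turned under some alternatives.

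**Figure D5:**
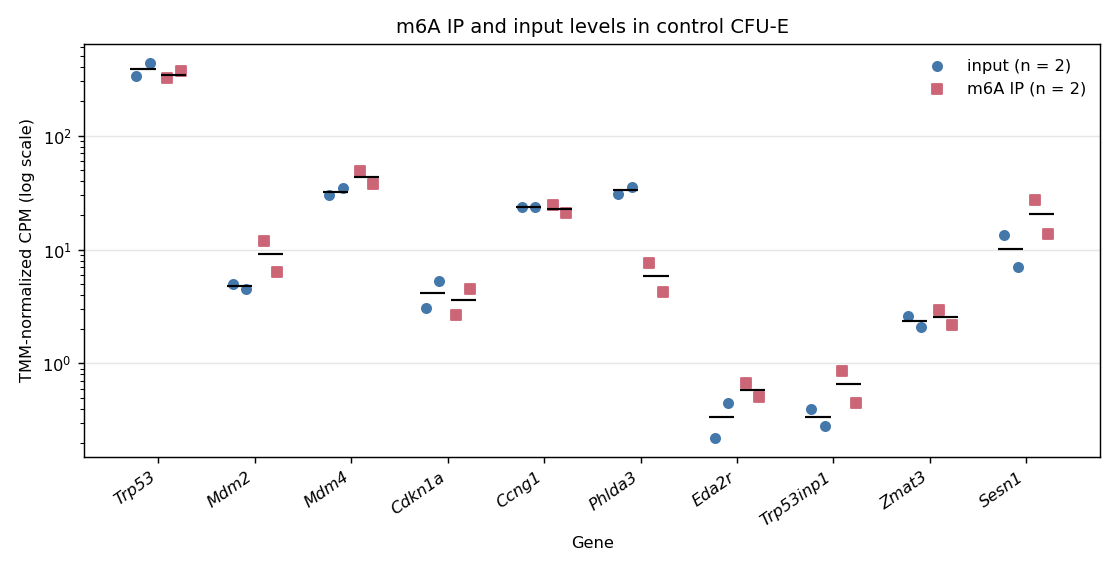
Levels of the 10 genes in input (circles) and m6A IP (squares) libraries of control CFU-E, on a log axis of TMM-normalized CPM (n = 2 each), with bars at the means. Phlda3 is the only gene whose IP libraries lie far below input, and Mdm2 and Sesn1 lie higher in IP with spread between the replicates.

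The preferred context of m6A is a purine-rich pentamer of which GGACT, in the letters of the cDNA, is the best-known form. On the sense strand of the longest coding transcript it occurred 0 times in *Trp53* (1867 bases), 2 times in *Mdm2* (3145 bases), *Phlda3* (1435 bases) and *Trp53inp1* (5404 bases), 4 times in *Cdkn1a* and *Ccng1*, 5 times in *Sesn1*, 6 times in *Mdm4*, 7 times in *Eda2r* and 9 times in *Zmat3* (7797 bases). The median over the genes tested was 3 in transcripts with a median of 3107 bases. Per kilobase the median was 1.03 over the genes tested, 0.924 in genes enriched in IP and 1.06 in depleted genes, and *Phlda3* had 1.39. Transcripts of genes enriched in IP had a median of 4222 bases and those of depleted genes 2342 bases, so the length of the transcript moved with the ratio, and its part in the value of *Phlda3* was not tested.

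Input and RNA-seq libraries of control CFU-E are set side by side without a test, since they were made by different methods. *Phlda3* was at 33.0 CPM in input and at 0.98 CPM in the RNA-seq libraries, *Cdkn1a* at 4.19 and 0.857 CPM, and *Mdm2* at 4.74 and 63.1 CPM. *Trp53* was at 384 and 653 CPM. The levels of these 4 genes in control cells thus differed between the methods by more than the SDs of either.

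Among the other p53 target genes 27 were tested for m6A, 1 was enriched and 5 depleted, against 7.9% and 7.86% of all genes tested, with a median log2 ratio of -0.22. *Ckap2*, a microtubule-associated protein, was enriched (1.40, edgeR adjusted p = 0.0178). The most depleted were *Ephx1* (-3.09, on 13 and 21 counts in input and 4 and 2 in IP, tested only through the input libraries, so its call adds no support to the count), *Bbc3*, which encodes the death protein PUMA (-2.20), *Plk3* (-2.14) and *Ppm1d* (-1.83), and the fifth lay at -1.66. *Rps27l* (0.10), *Bax* (-0.22) and *Aen* (-0.46), the most abundant, were not called. Leaving out single libraries gave 0 to 2 enriched and 3 to 6 depleted genes, with 0 enriched without input replicate 1, input replicate 2 or IP replicate 1 and 3 depleted without input replicate 1.

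For the 24 regulators and cofactors this comparison was added after the data were seen. Of 23 tested, 5 were enriched and 1 depleted, against 7.9% and 7.86% of all genes tested, with a median log2 ratio of 0.35. *Crebbp* (1.64), *Sirt1*, a deacetylase (1.27), *Chek1*, a checkpoint kinase (1.21), and *Huwe1*, a ubiquitin ligase (1.07), were the most enriched, and *Ppm1d* was the gene depleted. Among the genes not called, *Rpl11* (-0.35), *Rchy1* (0.06) and *Kat5* (-0.42) were the most abundant. The number enriched rested on single libraries, at 0 without input replicate 1, 1 without input replicate 2 or IP replicate 1, and 8 without IP replicate 2.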

How the data were processed

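RNA-seq of control and Kit-low *Mettl3*-deficient CFU-E (3 libraries each) and m6A IP and input of control CFU-E (2 each) were used, 10 of 16 samples. The 6 ProE samples were not analysed here. The authors filtered reads with fastp (0.23.4), quantified them with Kallisto (0.48.0) on mm10, summed transcripts with tximport and deposited estimated counts per gene, all whole numbers. The processing notes also list GRCm39 without a role. RNA-seq libraries were Smart-seq2 with oligo-dT, and m6A libraries SLIM-seq with a molecular identifier whose use in counting, like the strand, is not stated, so genes overlapping on opposite strands are uncertain. PCR copies are not independent molecules, and the spread between replicates sets the precision.

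Groups came from the sample titles. Each table was fitted alone in R 4.3.3 with edgeR 4.0.16 (filterByExpr, TMM, glmQLFit, glmQLFTest, Benjamini-Hochberg over all genes tested). The SE is the log2 fold change over the square root of F. RNA-seq calls needed a fold of at least 1.5 and an adjusted p under 0.05, m6A calls an adjusted p under 0.05. The study used DESeq2 and a filter on TPM, which was not applied. DESeq2 1.42.0, other normalizations, no filter, a replicate block, other call rules and leaving out each library were the alternatives. Scripts were tested on simulated data. Libraries of 1 group differed by far more than sampling noise (chi-square over its degrees of freedom 9.59 to 64.7), so none was a copy.

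The members and lists were chosen with earlier results of these data known. Named were the 10 genes, *Mettl3*, *Kit* and the markers by list, and from each list per comparison up to 4 called genes with the highest and 4 with the lowest change and the 3 most abundant not called, with lists of at most 5 called genes in full. A gene of the erythroblast maturation list is not reported here and was left out of its sums and counts. Gene models are GENCODE on GRCm38, start sites and sequences RefSeq on GRCm38.p6. Plots used matplotlib 3.10.9 in Python 3.11.15.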

Additional observations from a re-analysis of the deposited data

How the results depend on the processing

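Among the values of single genes in the RNA-seq, 112 alternatives kept direction and side of the thresholds and 8, all for *Trp53* and *Mdm4*, lost the fold threshold. In the m6A experiment 75 did so, 6 moved *Mdm2* or *Sesn1* past the threshold and 8 changed sign, namely *Trp53* (0.044 without input replicate 2; leaving out 1 library, -0.37 to 0.044), *Cdkn1a* (0.21 without input replicate 2, 0.086 without IP replicate 1; -0.65 to 0.21), *Ccng1* (0.11 with library sizes alone, 0.076 with the upper quartile, 0.049 without IP replicate 2; -0.18 to 0.049) and *Zmat3* (-0.029 without input replicate 2, -0.14 without IP replicate 1; -0.14 to 0.31), where the cause was not tested.

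Genes called lower in RNA-seq numbered 0 of the 10 with library sizes alone and 0 with edgeR's glmTreat against a fold of 1.5, and 0 to 2 with single libraries left out. By glmTreat, which needs a fold beyond 1.5 itself, 7 other targets, 1 paralog and 1 cell-cycle gene were higher and 0 regulators lower. With no fold threshold 6 regulators and 6 cell-cycle genes were higher and 3 cell-cycle genes lower. With library sizes alone 1 regulator was lower. Leaving out single libraries gave 1 to 2 other targets lower, 1 to 2 regulators lower and 3 to 5 cell-cycle genes higher.

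In the m6A data the genes enriched among the 10 numbered 2 with the upper quartile and 0 to 2 with single libraries left out, and the other targets enriched 2 with the upper quartile. DESeq2 gave 9 other targets and 2 regulators depleted. Leaving out single libraries gave 0 to 2 other targets and 0 to 8 regulators enriched and 3 to 6 other targets depleted.

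Replicate numbers are shared across groups, but no source used here says what a number marks. The correlations of deviations were -0.08 to 0.07 over 3 pairs in RNA-seq. In m6A the value was 0.28, and with 2 libraries per group the 2 pairs give the same value by construction. With the replicate block, 2 of the 10 genes were enriched in IP (*Mdm2*, *Sesn1*), 2 other targets enriched and 10 depleted, and 2 regulators depleted. The block moved the calls over all genes from 904 to 1783 higher and from 900 to 1755 lower in m6A, and in RNA-seq changed no call among the 10 genes.

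Over all genes, glmTreat called 665 higher and 482 lower in RNA-seq against 1453 and 1178, and no fold threshold 2024 lower. In m6A, leaving out 1 library gave 164 to 1358 higher and 427 to 968 lower. Library sizes alone raised the m6A median by 0.16 and made 60.6% of calls higher, the upper quartile 65.8%, against 50.1%. Groups of 2 libraries limit what m6A ratios of genes under 5 CPM can show.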
